A study of Homo sapiens with 6 samples.

Results

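The genes described here are a set of 34 that carry out protein folding in the endoplasmic reticulum (ER) and the unfolded protein response, chosen by function as a list of symbols. A gene was measured where the array annotation gave it at least 1 probe set (a group of short probes for one transcript) with that symbol alone. This held for 31 of the 34, with 79 probe sets, among 19775 genes on the arrays. PDIA5 and SYVN1 have only probe sets shared with a second symbol, SEC61G has none with its symbol, and these 3 are not counted below. The cells were HT29, a single established line from a human colorectal adenocarcinoma, grown in F12 medium with 7% serum, of which 300000 were plated. A day later a polyphenolic cocoa extract (500 µg, with no volume given) was added to 3 cultures for 24 h, and 3 control cultures were kept for the same time. The control samples are titled untreated, while the protocol states saline. Each culture was read on 1 Affymetrix U133 Plus 2.0 array, and no label says whether the cultures of a group were set up independently. Each p-value therefore reflects no more than the spread among these 6 cultures, which may be technical.

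Secreted and membrane proteins enter the ER through the Sec61 channel and fold there with the help of the HSP70 family chaperone BiP (HSPA5), of lectin chaperones that bind sugar chains, and of enzymes that form disulfide bonds. When unfolded proteins accumulate, the membrane sensors IRE1 (ERN1) and ATF6 raise the production of chaperones, and the sensor PERK sets a block on translation. Proteins that fail to fold are drawn back into the cytosol and destroyed. In the intestinal epithelium this system serves mucus and glycoprotein secretion. Messenger RNA was measured here, not the cleavage of ATF6, the splicing of XBP1 or the amount of any protein.

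The deposited values are log2 expression centred on each probe set's median over the 6 arrays. They give differences between arrays and no levels, so the presence of colon epithelial markers could not be checked. Of 10 such markers 2 rose, 0 fell and 8 did not pass (4 were higher and 0 lower at an unadjusted limma p under 0.05). Of 11 goblet-like markers 3 fell (TFF1, REG4 and SPINK4, with log2 differences of −2.77, −1.58 and −1.06) and 8 did not pass. This was 27.3%, where 13.5% of all genes changed. The median difference of the 11 was −0.138, with 3 positive and 8 negative. Their mean, in which the falls of TFF1, REG4 and SPINK4 weigh most, was 0.185 to 0.342 in the controls and −0.246 to −0.200 with cocoa. Of 7 enteroendocrine-like markers 1 rose, and of 10 absorptive-like and 7 fibroblast-like markers 0 changed in limma (0 at an unadjusted p under 0.05). The signal of 18S ribosomal RNA was 3.31 on cocoa array 2 and 1.40 on cocoa array 3, against −1.12 to 0.51 on the other 4 arrays. The 5′ minus 3′ signal of actin and GAPDH, a measure of RNA integrity, was −0.259 on cocoa array 2 and −0.052 on cocoa array 3 and between 0.009 and 0.033 on the others. The part of these differences in the results below was not tested beyond the fits named.

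Of the 31 genes, 4 rose, 3 fell and 24 did not pass a Benjamini-Hochberg adjusted p of 0.05 in limma, which was adjusted over all 19775 genes. DNAJB9, ATF6, P4HB and PDIA3 rose, by 1.18-fold to 1.39-fold. SDF2L1, MANF and ERO1A fell, by 1.17-fold to 1.28-fold. The share changed was 22.6%, against 13.5% of all genes. Over all genes 7.36% rose and 6.12% fell. The median log2 difference, cocoa minus control, was 0.029 in the set and −0.012 over all genes, and the 31 differences ran from −0.36 to 0.47. The 2 groups of arrays lay fully apart in 13 of the 31 genes (41.9%), 9 with cocoa above and 4 with cocoa below, against 32.5% of all genes, 15.4% above and 17.0% below. The count of changed genes rests on single arrays: it was 3 without control array 1 (8.21% of all genes), without control array 3 (9.23%) or without cocoa array 2 (9.04%), and 4 without control array 2 (6.65%). The share over all genes was thus also lower in these fits. The count in the set was 6 without cocoa array 1 and 6 without cocoa array 3, beside 2881 and 1928 of all 19775 genes. Without cocoa arrays 2 and 3, a fit that assumes the lone cocoa array varies like the controls and that was chosen after the data were seen, it was 0 in limma, with 10 genes at an unadjusted p under 0.05 and 4.27% of all genes changed. With the 18S signal as a covariate 1 gene of the set changed (5.58% of all genes), and with the 5′ minus 3′ signal 3 (7.14%).

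**Figure D1:**
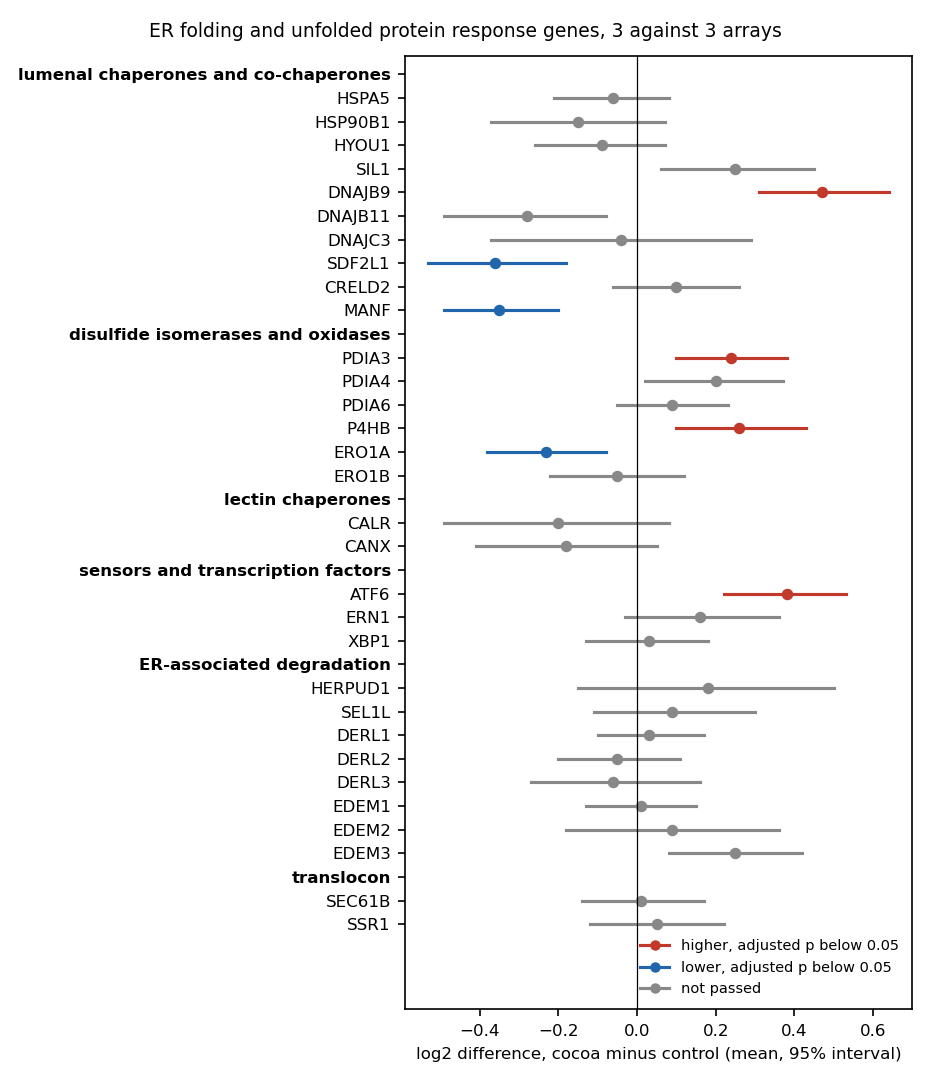
Log2 difference, cocoa minus control, of each of the 31 genes (point) with its 95% interval (line), grouped by role, from 3 arrays per group. The 4 genes that rose and the 3 that fell are coloured; the other 24 are grey, and the extremes are SDF2L1 at −0.36 and DNAJB9 at 0.47.

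Among 10 chaperones and their partners in the ER lumen, 1 rose, 2 fell and 7 did not pass, with a median of −0.079. DNAJB9 (ERdj4), an ER co-chaperone that recruits BiP to IRE1 and to misfolded proteins, had values of −0.31, −0.30 and −0.15 in the controls and 0.16, 0.30 and 0.20 with cocoa. All cocoa arrays lay above all controls, and the rise was 0.47 on the log2 scale (SE 0.073, n = 3 per group, limma adjusted p = 0.00337). Its 3 probe sets each rose, by 0.42 to 0.51. DNAJB9 was the 1 gene of the set whose call was kept with the 18S signal as a covariate (0.42, adjusted p = 0.0316). It was also kept when any single array was dropped (0.00604 to 0.0232), and without cocoa arrays 2 and 3 the difference was 0.41 (0.0669).

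MANF, a small protein of the ER lumen that is secreted under stress, had values of 0.23, 0.17 and 0.12 in the controls and −0.20, −0.20 and −0.12 with cocoa. These groups did not overlap either, and MANF fell by 0.35 (SE 0.065, limma adjusted p = 0.00818; 0.0175 to 0.042 with any single array dropped). The difference was of like size, −0.34 with the 18S covariate (adjusted p = 0.0522) and −0.38 without cocoa arrays 2 and 3 (0.0653). SDF2L1, which keeps ERdj3 and its clients soluble in the ER, read 0.20, 0.07 and 0.20 in the controls and −0.07, −0.22 and −0.30 with cocoa, and fell by 0.36 (SE 0.079, limma adjusted p = 0.0168). Its call was lost without control array 1, control array 3, cocoa array 2 or cocoa array 3 (range 0.0103 to 0.0652). It was also lost with the 18S covariate (−0.28, 0.117) and the 5′ minus 3′ covariate (−0.32, 0.0847).

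The principal chaperone did not pass. HSPA5 (BiP) read 0.05, −0.01 and 0.06 in the controls and −0.02, 0.01 and −0.09 with cocoa, with a difference of −0.06 (95% interval −0.21 to 0.08, limma adjusted p = 0.592). In this mean the arrays overlapped, and the interval leaves out a rise or fall of the size seen for DNAJB9. The 2 probe sets of HSPA5 differed. In 211936_at every cocoa array lay below the controls, with a difference of −0.16 (limma adjusted p over probe sets 0.26), while 230031_at differed by 0.03 (0.893). HSP90B1 (GRP94), the HSP90 of the ER, differed by −0.15 (interval −0.37 to 0.07), and HYOU1, a nucleotide exchange factor of BiP, by −0.09 (−0.26 to 0.07). The 2 probe sets of HSP90B1 that carry its symbol alone end in _x_at, a suffix for possible matches to several transcripts, and they read −0.35 and 0.05. A pair of probe sets that the annotation shares between HSP90B1 and a microRNA gene read 0.04 and 0.15.

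SIL1, a second exchange factor of BiP, read −0.03, −0.03 and −0.04 in the controls and 0.28, 0.35 and 0.03 with cocoa. The groups did not overlap, but the limma adjusted p of its difference of 0.25 was 0.0873, and 0.0207 without cocoa array 3 (0.0207 to 0.222 without 1 array). DNAJB11 (ERdj3), a co-chaperone that binds unfolded clients, read 0.12, 0.16 and 0.00 in the controls and −0.00, −0.27 and −0.29 with cocoa. Its difference was −0.28 (adjusted p = 0.0714), and 0.0145 without cocoa array 1 (0.0145 to 0.225 without 1 array). DNAJC3 (p58IPK), a co-chaperone that inhibits PERK, read 0.20, −0.45 and 0.07 in the 3 cocoa arrays, a spread wider than its difference of −0.04. CRELD2, a disulfide isomerase-like protein secreted under ER stress, differed by 0.10 (interval −0.06 to 0.26).

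**Figure D2:**
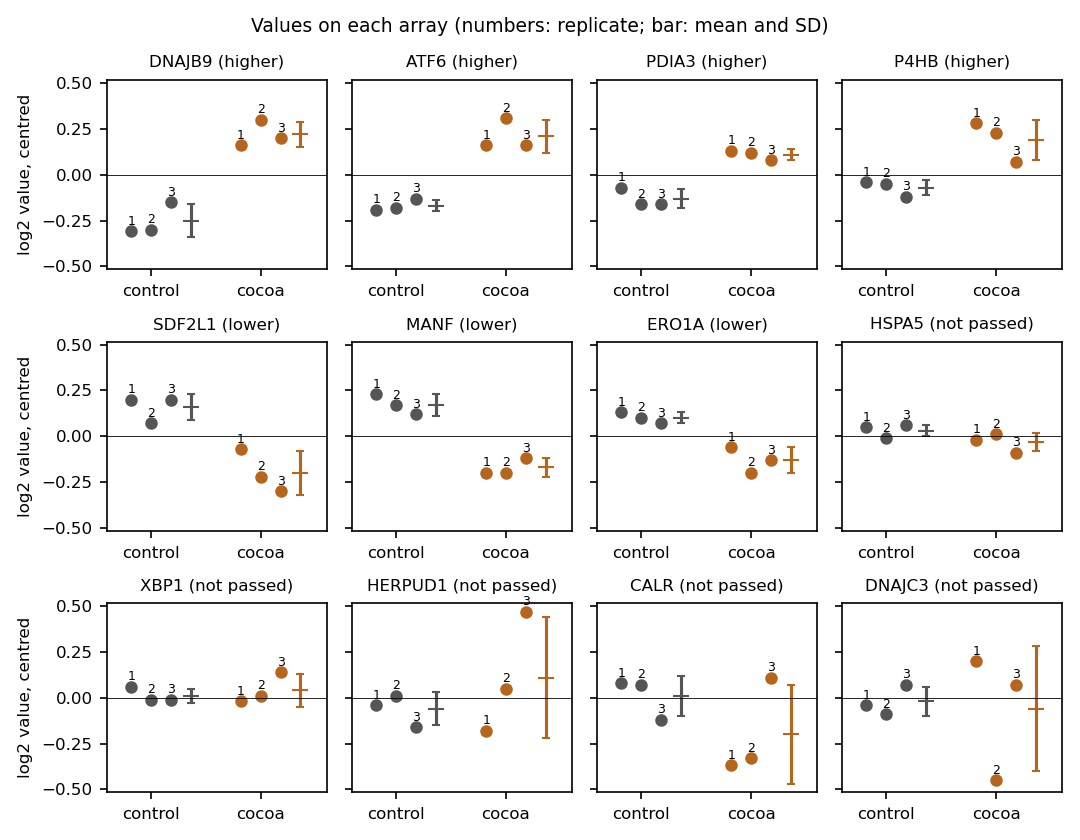
Centred log2 values of 12 genes on the 3 control and 3 cocoa arrays, with the replicate number above each point and the mean and SD beside them. The groups are apart in the first 7 genes, while in HERPUD1, CALR and DNAJC3 the 3 cocoa arrays spread from −0.18 to 0.47, from −0.37 to 0.11 and from −0.45 to 0.20.

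Of 6 disulfide isomerases and oxidases, 2 rose, 1 fell and 3 did not pass. The 4 isomerases measured in this set had every cocoa array above the controls, where 15.4% of all genes did. PDI relatives outside the set did not all share this. TMX4 rose (0.35) and AGR3 fell (−0.70), while PDIA2 (−0.11) and TMX1 (−0.34) had every cocoa array below the controls and did not pass. P4HB (PDI), the founding isomerase, which is also a subunit of prolyl 4-hydroxylase, read −0.04, −0.05 and −0.12 in the controls and 0.28, 0.23 and 0.07 with cocoa. It rose by 0.26 (SE 0.073, limma adjusted p = 0.045). PDIA3 (ERp57), which works on glycoproteins held by the lectin chaperones, read −0.07, −0.16 and −0.16 in the controls and 0.13, 0.12 and 0.08 with cocoa. It rose by 0.24 (SE 0.063, limma adjusted p = 0.0357). PDIA4 (ERp72) and PDIA6 (P5) did not pass, with differences of 0.20 (interval 0.02 to 0.37) and 0.09 (−0.05 to 0.23).

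The 12 probe sets of these 4 isomerases each had a positive difference, from 0.08 to 0.35, and none passed alone (limma adjusted p over probe sets 0.0563 to 0.628).

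ERO1A, the oxidase that recharges PDI and is induced by hypoxia as well as ER stress, went the other way. It read 0.13, 0.10 and 0.07 in the controls and −0.06, −0.20 and −0.13 with cocoa, and fell by 0.23 (SE 0.066, limma adjusted p = 0.0485). ERO1B, the second such oxidase, differed by −0.05 (interval −0.22 to 0.12). The calls in this group are close to the threshold. Dropping any single array ended the call of PDIA3 (0.0587 to 0.142). P4HB kept its call only when cocoa array 3 was dropped (0.0291 to 0.132), and ERO1A only when cocoa array 1 was (0.0375 to 0.153). ERO1A also missed the threshold after repeated quantile normalization (0.0543) and median centring (0.0562). Its difference was −0.12 without probe sets ending in _s_at or _x_at (0.342), −0.16 with the median of its probe sets (0.144) and −0.17 with either covariate (0.24 and 0.186).

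The lectin chaperones CALR (calreticulin) and CANX (calnexin), which hold new glycoproteins until their sugar chains are trimmed, did not pass (0 of 2 in limma, also 0 at an unadjusted p under 0.05). CALR read 0.08, 0.07 and −0.12 in the controls and −0.37, −0.33 and 0.11 with cocoa. Cocoa arrays 1 and 2 were below every control and cocoa array 3 above all of them, and without cocoa array 3 the difference went from −0.20 to −0.36, adjusted p = 0.0384 (up to 0.612 when other arrays were dropped). The probe sets of CALR disagreed, and none passed alone. Probe sets 214315_x_at and 212953_x_at differed by −0.56 and −0.13, and 200935_at by 0.07. CANX differed by −0.18 (interval −0.41 to 0.05).

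Of the 3 sensors and transcription factors, 1 rose and 2 did not pass. ATF6, a membrane-bound transcription factor that is cut free in the Golgi under ER stress, read −0.19, −0.18 and −0.13 in the controls and 0.16, 0.31 and 0.16 with cocoa. It rose by 0.38 (SE 0.069, limma adjusted p = 0.00734), and dropping any single array kept the call (0.0113 to 0.0406). The difference of ATF6 was 0.32 with the 18S covariate (adjusted p = 0.0588), 0.31 with the 5′ minus 3′ covariate (0.0407) and 0.33 without cocoa arrays 2 and 3 (0.0799). ERN1 (IRE1), the kinase and ribonuclease that splices XBP1, read −0.05, −0.09 and −0.07 in the controls and −0.03, 0.03 and 0.29 with cocoa. The groups of ERN1 lay apart by a narrow margin and its difference of 0.16 did not pass (adjusted p = 0.28). XBP1, the transcription factor made from that splicing, read 0.06, −0.01 and −0.01 in the controls and −0.02, 0.01 and 0.14 with cocoa, with a difference of 0.03 (interval −0.13 to 0.18).

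None of 8 genes of ER-associated degradation, which takes misfolded proteins out of the ER, passed in limma, and 1 of them, EDEM3, had an unadjusted p under 0.05. EDEM3, a mannosidase that marks glycoproteins for removal, read −0.10, −0.13 and −0.04 in the controls and 0.29, 0.10 and 0.09 with cocoa. Its difference was 0.25 (interval 0.08 to 0.42, adjusted p = 0.0557), and it passed with array weights (0.0405) and with the median of its probe sets (0.0467). EDEM1 and EDEM2, its relatives, differed by 0.01 (−0.13 to 0.15) and 0.09 (−0.18 to 0.36). HERPUD1, a membrane protein of the degradation complex and a sensitive target of ER stress, read −0.04, 0.01 and −0.16 in the controls and −0.18, 0.05 and 0.47 with cocoa. Its cocoa arrays lay on both sides of the controls, and the difference of 0.18 had an interval of −0.15 to 0.50. SEL1L, the partner of the ubiquitin ligase SYVN1, differed by 0.09, and the derlins DERL1, DERL2 and DERL3, membrane proteins of the export channel, by 0.03, −0.05 and −0.06. In all 8 genes of this group the SD was larger among cocoa arrays than among controls. In the whole set this was so in 25 of 31 genes (80.6%), and over all genes in 60.9%.

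Of the translocon, 2 genes were measured and 0 passed in limma (0 at an unadjusted p under 0.05). SEC61B, the beta subunit of the Sec61 channel, differed by 0.01 (interval −0.14 to 0.17). SSR1, the alpha subunit of the TRAP complex beside the channel, differed by 0.05 (−0.12 to 0.22), but this mean joins probe sets that disagree.

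The 6 probe sets of SSR1 fell into 2 kinds. Probe set 225435_at read −0.37, −0.23 and −0.16 in the controls and 0.49, 0.46 and 0.16 with cocoa, and 226712_at read −0.26, −0.17 and −0.18 and 0.28, 0.30 and 0.17. These readings did not overlap between groups, and both probe sets rose, by 0.62 (limma adjusted p over probe sets 0.0126) and 0.45 (0.0111). The other 4, which end in _s_at, had differences of −0.30 to −0.06 and did not pass, and the lowest 2 read −0.53 and −0.59 on cocoa array 2. Without probe sets ending in _s_at or _x_at the difference of SSR1 was 0.54 with an adjusted p of 0.00457. With the median of its probe sets it was −0.039 (0.794).

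In the 23 genes with several probe sets, all had one sign in 12 and both signs occurred in 11. Over the 79 probe sets, 9 rose and 2 fell. Of all 54613 probe sets other than controls 7.98% changed and 4.68% rose, but these include probe sets with several symbols or none. The 9 belong to DNAJB9, ATF6, SSR1 and EDEM3 and the 2 to MANF and SDF2L1. Of the 4 probe sets of ATF6, 3 rose by 0.43 to 0.61 and 203952_at read 0.02 (adjusted p = 0.912). In ERN1 the probe set 227755_at had a difference of 0.50 (adjusted p = 0.0654), with 0.67 on cocoa array 3, while the other 2 read −0.04 and 0.04. Cocoa array 2, the array with the lowest 5′ minus 3′ signal, held the lowest readings of single probe sets in several genes that did not pass. Probe set 208853_s_at of CANX read −1.07 there, 235341_at of DNAJC3 −0.88 and 202062_s_at of SEL1L −0.44, while the readings of these 3 on the other arrays lay between −0.37 and 0.30. Without cocoa array 2 the difference of DNAJC3 was 0.16 in place of −0.04.

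**Figure D3:**
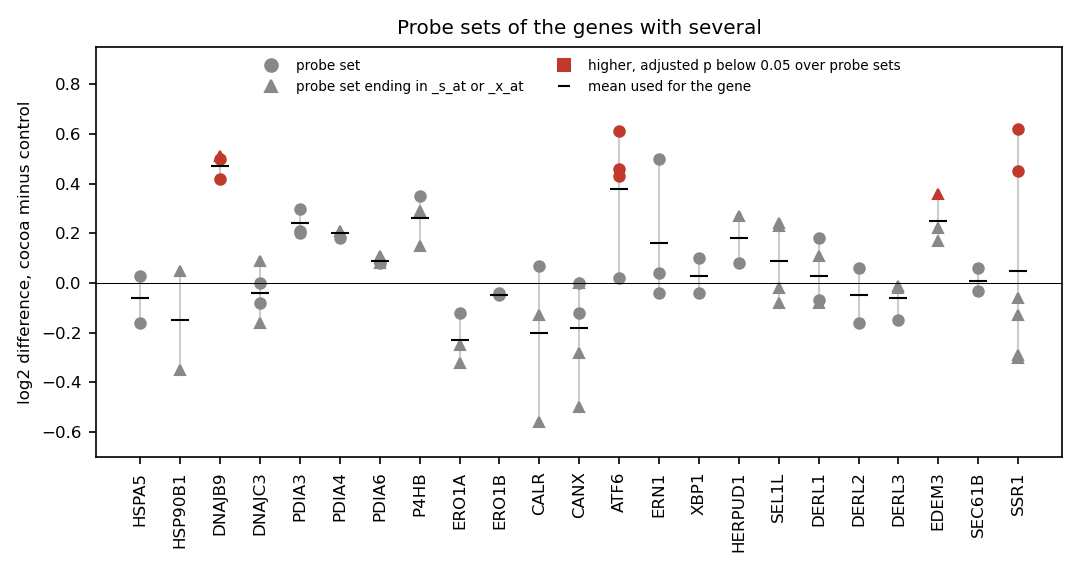
Log2 difference of each probe set of the 23 genes with several, with triangles for probe sets ending in _s_at or _x_at, red for those that rose and a black bar for the gene's mean. The 3 probe sets of DNAJB9 lie together at 0.42 to 0.51, while those of SSR1 run from −0.30 to 0.62.

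Many of these genes are known targets of ATF6 and XBP1 through the ER stress element (ERSE), which joins a CCAAT box to a CCACG box at a fixed distance. The windows from 250 bases before to 50 after the transcript start (RefSeq, GRCh38.p14) were searched on both strands for ERSE (CCAAT, 9 bases of any kind, CCACG), for ERSE-II (ATTGG, 1 base of any kind, CCACG) and for the XBP1 site UPRE (TGACGTGG), whose CGTGG also begins ERSE-II read backwards. Of all 35116 windows 0.0769% held ERSE, 0.0541% ERSE-II and 0.729% UPRE. A window was given for 31 of the 34 genes, not for PDIA3, DERL1 and DERL3. ERSE was found in 8 genes, ERSE-II in 3 and UPRE in HYOU1 alone, where it overlaps an ERSE-II. The sites are shown because they divide the set by a feature the arrays did not use. Each is given 5′ to 3′ on the gene's strand, with the fixed letters of the motif in capitals.
HSPA5: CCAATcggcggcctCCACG
HSP90B1: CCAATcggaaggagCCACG
HSP90B1: CGTGGtgcggcgcgATTGG
CALR: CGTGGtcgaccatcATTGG
CANX: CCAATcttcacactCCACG
PDIA6: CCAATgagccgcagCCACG
ERO1B: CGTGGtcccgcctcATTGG
CRELD2: CGTGGcgaactcggATTGG
XBP1: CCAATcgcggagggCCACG
HYOU1: CGTGGtCCAAT
HERPUD1: ATTGGgCCACG
SDF2L1: CGTGGaCCAAT

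The site of HSPA5 is at chr9:125241391-125241409, 66 to 48 bases before the start, and that of XBP1 at chr22:28800603-28800621. The ERSE of CALR is at chr19:12938384-12938402, that of CRELD2 at chr22:49918554-49918572 and that of ERO1B at chr1:236282183-236282201. The CANX site is at chr5:179698778-179698796, in 3 of its 4 windows, and the PDIA6 site at chr2:10812853-10812871, in 1 of its 2. HSP90B1 holds a site at chr12:103930216-103930234 and a second at chr12:103930321-103930339. The ERSE-II of SDF2L1 is at chr22:21642114-21642124 and that of HERPUD1 at chr16:56932025-56932035, while HYOU1 has one at chr11:119057274-119057284 and one at chr11:119057380-119057390.

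Of the 8 genes with ERSE 0 rose and 0 fell in limma, and 0 had an unadjusted p under 0.05. Their differences lay between −0.20 and 0.10, with a median of −0.056, and the groups did not overlap in 1 of them. Of the 3 with ERSE-II, SDF2L1 fell and HYOU1 and HERPUD1 did not pass. Of the 17 measured genes whose window held neither, 3 rose (DNAJB9, ATF6 and P4HB), 2 fell (MANF and ERO1A) and 12 did not pass, with a median of 0.089 and 10 genes whose groups did not overlap. Thus 5 of 17 (29.4%) changed without either element and 1 of 11 (9.09%) with one, where 13.5% of all genes changed and the groups lay apart in 32.5%. The search took exact letters only, so a gene counted without an element may hold one with a changed letter or one outside the window. The difference between these shares was not tested. P4HB, ERO1A and SDF2L1 kept their calls in 1, 1 and 2 of the 6 fits without 1 array, and DNAJB9, ATF6 and MANF in all 6.

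**Figure D4:**
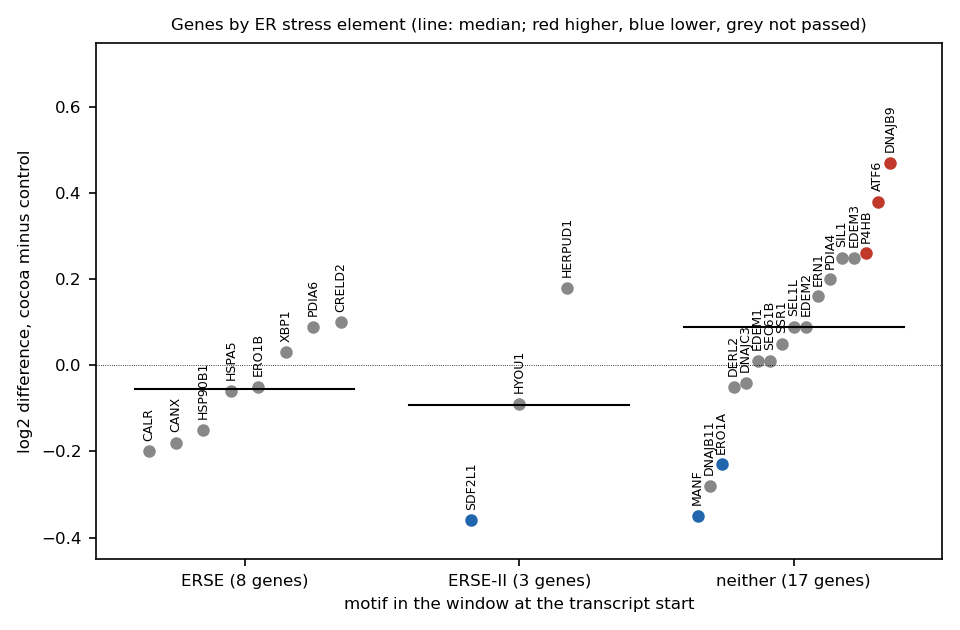
Log2 difference of the 28 measured genes that have a window at the transcript start, by the element found in it; the line is the median and changed genes are coloured. The 8 genes with ERSE lie between −0.20 and 0.10, while the 17 with neither element run from −0.35 to 0.47.

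The 250 bases before the start are printed for 3 genes as examples: HSPA5 with ERSE, which did not pass (minus strand, chr9:125241344-125241593), SDF2L1 with ERSE-II, which fell (plus strand, chr22:21642052-21642301), and DNAJB9 with neither, which rose (plus strand, chr7:108569624-108569873). Their outcomes are not those of their classes. Among the 3 genes with ERSE-II 2 did not pass, and among the 17 with neither element 12 did not. Capitals mark the fixed letters of the motif.
HSPA5: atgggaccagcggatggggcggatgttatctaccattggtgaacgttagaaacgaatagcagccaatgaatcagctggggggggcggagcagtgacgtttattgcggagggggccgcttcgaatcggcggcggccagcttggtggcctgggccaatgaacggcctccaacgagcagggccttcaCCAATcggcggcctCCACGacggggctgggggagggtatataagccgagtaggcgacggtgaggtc
SDF2L1: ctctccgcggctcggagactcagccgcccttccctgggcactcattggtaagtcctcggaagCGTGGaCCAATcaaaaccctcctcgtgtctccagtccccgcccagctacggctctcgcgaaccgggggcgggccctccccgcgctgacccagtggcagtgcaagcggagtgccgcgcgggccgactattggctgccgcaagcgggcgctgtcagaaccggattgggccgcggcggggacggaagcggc
DNAJB9: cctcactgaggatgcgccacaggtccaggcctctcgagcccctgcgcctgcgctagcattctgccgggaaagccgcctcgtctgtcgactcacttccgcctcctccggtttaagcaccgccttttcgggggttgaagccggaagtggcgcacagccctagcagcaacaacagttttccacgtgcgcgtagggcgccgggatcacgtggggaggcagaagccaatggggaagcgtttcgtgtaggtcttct

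The rest of the pathway was read through 7 further lists, which were chosen with earlier results of these data known. Of their 144 measured genes 21 rose, 9 fell and 114 did not pass (20.8% changed, where 13.5% of all genes did, median −0.017). Because of that choice, the shares of these lists only describe them. The up to 4 largest changes of each list are named. Among 18 genes of the other sensors and the PERK arm 3 rose and 1 fell (22.2%). PPP1R15A (GADD34), which ends the translation block set by PERK, fell by 0.47 (SE 0.085, limma adjusted p = 0.00726), from 0.31, 0.27 and 0.11 in the controls to −0.27, −0.34 and −0.11. WFS1, an ER membrane protein that restrains ATF6 signalling, rose by 0.42 (SE 0.085), CREB3L1, a relative of ATF6, by 0.31 (SE 0.080) and MBTPS2, the protease that releases ATF6 in the Golgi, by 0.30 (SE 0.069). The calls of PPP1R15A and WFS1 were kept in all 6 fits without 1 array, those of CREB3L1 and MBTPS2 in 1 and 2 of them. With the 18S covariate none of these 4 passed (PPP1R15A −0.44, adjusted p = 0.055, and WFS1 0.35, 0.0898). WFS1 also missed the threshold with the 5′ minus 3′ covariate (0.0677) and without cocoa arrays 2 and 3 (0.065). PERK itself (EIF2AK3) differed by 0.05 (adjusted p = 0.718).

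The PERK targets ATF4, DDIT3 and TRIB3, chosen after their values were seen, did not pass and differed between the cocoa arrays. ATF4, the transcription factor at the head of that arm, read 0.07, 0.02 and 0.01 in the controls and −0.56, −0.69 and −0.01 with cocoa. The groups of ATF4 did not overlap, as in 32.5% of all genes, while those of DDIT3 and TRIB3 did. Its difference of −0.45 had a limma adjusted p of 0.0787, and 0.00227 to 0.212 as single arrays were dropped. DDIT3 (CHOP) read −0.43, −0.35 and 0.42 with cocoa, and TRIB3, a pseudokinase induced by CHOP, −0.14, −0.21 and 0.73. Cocoa array 3 was the highest of the cocoa arrays in each of these 3 genes, as it was in HERPUD1, CALR, ERN1 and XBP1. In other genes of the set it was the lowest of them, among these HSPA5, HYOU1, SIL1, DNAJB11, SDF2L1, CRELD2, PDIA3, PDIA4, P4HB and EDEM3. The adjusted p of DDIT3 was 0.729, and between 0.0133 and 0.969 as single arrays were dropped.

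Of 29 other folding enzymes 6 rose and 3 fell (31.0%). AGR3, a PDI relative, fell by 0.70 (SE 0.15), while QSOX1, a sulfhydryl oxidase, rose by 0.60 (SE 0.10), FKBP10, a prolyl isomerase that acts on collagen, by 0.42 (SE 0.11) and PPIC, a cyclophilin, by 0.40 (SE 0.075). FKBP10 was at 0.22 with the 18S covariate (adjusted p = 0.204), 0.27 with the 5′ minus 3′ covariate (0.181) and 0.25 without cocoa arrays 2 and 3 (0.314). Of 24 other genes of ER-associated degradation 4 rose and 4 fell (33.3%). OS9 and ERLEC1, the lectins that read the sugar marks made by the EDEM mannosidases, rose by 0.40 (SE 0.069) and 0.38 (SE 0.066), ERLIN2, a lipid raft protein of the ER, rose by 0.42 (SE 0.079), and UBE2J2, a membrane-bound ubiquitin-conjugating enzyme, fell by 0.33 (SE 0.072). OS9, ERLEC1 and ERLIN2 kept their calls in all 6 fits without 1 array and with the 18S covariate (adjusted p 0.041, 0.0257 and 0.0422).

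Of 24 other genes of the translocon and of targeting 3 rose and 1 fell (16.7%). They were CKAP4, an ER membrane protein that anchors microtubules (0.37, SE 0.083), SEC62, which helps post-translational import (0.33, SE 0.062), SSR4, the delta subunit of TRAP (0.26, SE 0.070), and SRPRB, a subunit of the signal recognition particle receptor (−0.30, SE 0.068). Of 13 genes of ER calcium 3 rose and 0 fell in limma (23.1%; 4 higher and 1 lower at an unadjusted p under 0.05): ITPR2, a calcium release channel (0.51, SE 0.071), ATP2A3, a calcium pump (0.30, SE 0.083), and RCN1, a calcium-binding protein (0.25, SE 0.064). Of 18 genes of glycan transfer and trimming 1 rose, the mannosidase MAN1B1 (0.29, SE 0.068), and 0 fell in limma (1 was lower at an unadjusted p under 0.05). Of 18 of COPII exit and retrieval 1 rose, KDELR3, a receptor that returns ER residents from the Golgi (0.32, SE 0.071), and 0 fell (1 was lower at an unadjusted p under 0.05). In the lists of glycan transfer and of COPII exit 5.56% changed. Of the genes named from these lists, QSOX1, PPIC, SEC62 and ITPR2 also kept their calls whichever single array was dropped, AGR3 in 5 of the 6 cases, and the 9 not yet mentioned in this respect in 0 to 3. Of the 21 genes named, 7 kept their calls with the 18S covariate (QSOX1, PPIC, OS9, ERLEC1, ERLIN2, KDELR3 and ITPR2), 10 with the 5′ minus 3′ covariate and 9 without cocoa arrays 2 and 3.

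**Figure D5:**
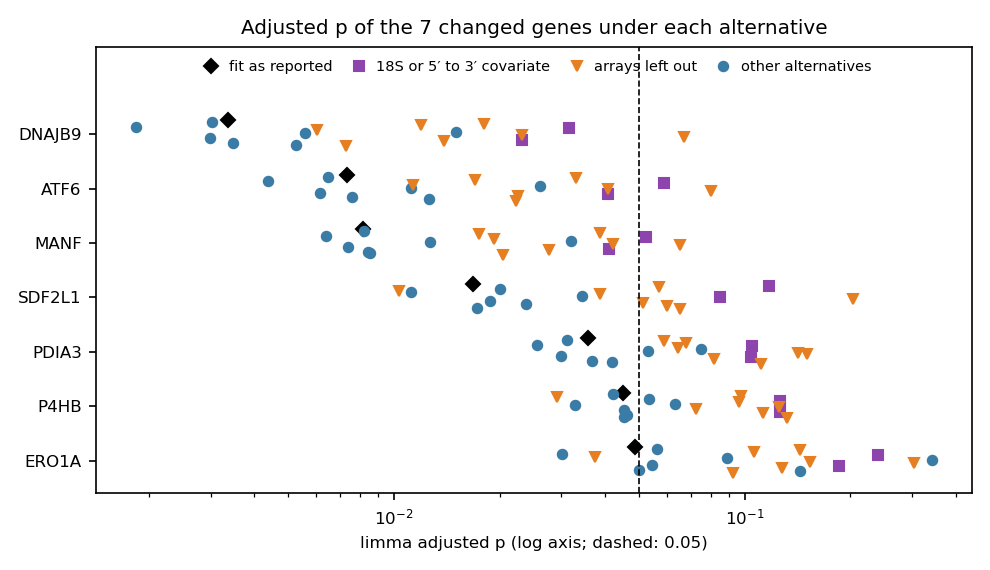
Limma adjusted p (log axis) of the 7 changed genes in the fit as reported and under 16 alternatives, with the threshold of 0.05 as a dashed line. DNAJB9, ATF6 and MANF stay left of the line in all but 1 or 2 alternatives, while ERO1A, PDIA3 and P4HB lie on both sides of it.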

How the data were processed

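The deposited table holds log2 values of 54675 probe sets on 6 arrays, made by the authors with RMA, per the submitters' processing notes; the series text names GeneSpring GX. No source used here gives versions or filters. Values lie between −2.42 and 4.02, centred on 0 for every probe set. That the base is 2 follows from RMA and is not stated in the table. Names came from the platform's annotation table: 41091 had 1 symbol, 1801 several and 11721 none, and 62 were controls. By gene identifier 41037 of the 41091 matched RefSeq's gene table, and 0 symbols changed. A gene's value is the mean of its single-symbol probe sets.

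Cocoa minus control was fitted on all 19775 genes with limma 3.58.1 (lmFit, eBayes) in R 4.3.3, with Benjamini-Hochberg adjustment at 0.05. A difference is one of group means, its SE the moderated one. The number of arrays limits the precision. Arrays of one group differed with an SD of 0.14 to 0.161 (control) and 0.174 to 0.198 (cocoa), so none was a copy. In simulated data with each gene's SD pooled over both groups, 50 genes per size among 19775, the fit recovered 16% at a log2 change of 0.3, 62% at 0.5 and 98% at 1. Far fewer genes were changed there than the 2666 called in the data, so its adjusted threshold was stricter. These rates therefore need not hold for the reported fit. Of 147 calls in the simulated data 9 were unchanged genes. The genes, the 7 pathway lists, the alternatives and the naming rule (all measured genes of the set, and the 4 largest changes of each list) were chosen with earlier results of these data known. The fit without cocoa arrays 2 and 3 was added later. Promoter windows came from RefSeq. Tables used pandas 2.3.3 and numpy 2.4.6 under Python 3.11.15, and plots matplotlib 3.10.9.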

Additional observations from a re-analysis of the deposited data

Results flagged for a closer look

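Probe set 203857_s_at, which the annotation shares between PDIA5 and the microRNA gene MIR7110 and which therefore entered no gene value, read −0.21, −0.15 and −0.20 in the controls and 0.27, 0.44 and 0.15 with cocoa. It was higher by 0.47 (SE 0.091, limma adjusted p over probe sets 0.0173) in data outside the gene comparison. The annotation alone does not say which of the 2 genes it reads, and this was not tested.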

How the results depend on the processing

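Beside the 7 changed genes of the set as reported, 4 genes changed with the replicate number as a block, 3 given the 5′ minus 3′ signal and 1 given 18S as covariate. In the fits without 1 array 3 to 6 genes of the set changed, and 0 did without cocoa arrays 2 and 3. Over all genes 1947 changed with the block, 1103 with the 18S covariate, 1411 with the 5′ minus 3′ covariate, 845 without cocoa arrays 2 and 3, and 1315 to 2881 without 1 array. Over all genes the deviations of same-numbered arrays from their group means had correlations of −0.12, −0.009 and −0.003. These cannot show a pairing that acts on some genes only. Why 4 genes of the set changed with the block was not tested. Under the robust prior, array weights, repeated normalization, median centring, the median of probe sets and the fit without _s_at and _x_at probe sets, 5 to 8 genes of the set changed. The 7 changed genes kept their sign in each of the 16 alternatives that gave them a value.

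The sign changed in 24 of 491 values, all of genes that did not pass, among them CALR (−0.20 as reported), CANX (−0.18) and HERPUD1 (0.18). DNAJC3 turned to 0.0044 with quantile normalization, 0.23 and 0.22 with the 18S and 5′ minus 3′ covariates, 0.0082 without control array 3, 0.16 without cocoa array 2 and 0.22 without cocoa arrays 2 and 3. Without that pair CANX turned to 0.033, XBP1 to −0.038, HERPUD1 to −0.12 and EDEM1 to −0.0048. EDEM1 was −0.0055 and −0.02 with the 2 covariates, and −0.007 and −0.013 without control array 2 and cocoa array 2. Without cocoa array 1 EDEM2 was −0.044, SEC61B −0.012, SSR1 −0.021 and DERL3 0.005; without cocoa array 3 XBP1 was −0.019 and HERPUD1 −0.0038. SEC61B was −0.029 without control array 2, ERO1B 0.001 without cocoa array 2, CALR 0.073 without _s_at and _x_at probe sets, and SSR1 −0.039 with the median of probe sets. Over the fits without 1 array the ranges were −0.17 to 0.16 for DNAJC3, −0.11 to 0.001 for ERO1B, −0.019 to 0.063 for XBP1, −0.0038 to 0.32 for HERPUD1, −0.17 to 0.005 for DERL3, −0.013 to 0.028 for EDEM1, −0.044 to 0.17 for EDEM2, −0.029 to 0.056 for SEC61B and −0.021 to 0.096 for SSR1. The cause of these changes was not tested. Signal over background is unknown, because the table was centred.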

Other observations

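Outside the set, 10 further measured genes hold ERSE in their window. Of these, TRIM5, an antiviral restriction factor, rose by 0.36 (limma adjusted p = 0.011), and 9 did not pass, among them FICD, which modifies BiP (0.18, adjusted p = 0.212), and SERP1, a protein that protects new membrane proteins (−0.15, adjusted p = 0.273). Of 16 further genes with ERSE-II, NUCB1, a calcium-binding protein of the Golgi, rose by 0.54 (adjusted p = 0.0124) and SETD3, a histidine methyltransferase of actin, fell by 0.37 (adjusted p = 0.00687). Of 180 measured genes with the UPRE letters 24 rose and 3 fell, so that 13.3% were higher, beside 7.36% of all genes. This was seen after the search and was not tested. These genes were named after their values were seen.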
